A study of Homo sapiens with 18 samples.

Results

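The THAP genes encode DNA-binding proteins that share an N-terminal zinc-binding module, the THAP domain. Their mRNA half-lives were followed in HEK293T cells, a human embryonic kidney line, with and without an inhibitor of mRNA methylation. The family was defined by gene symbol from a list of 10 genes, THAP1, THAP2, THAP3, THAP4, THAP5, THAP7, THAP9, THAP10, THAP11 and THAP12. It was selected on a measured value, the half-life ratio of THAP12. That ratio took rank 10 among 7368 genes whose half-lives lay between 0.5 and 24 h in each treatment. With the inhibitor, the THAP12 half-life was 23.0 h, just under the upper limit of that range. Among all genes, with no such limit on half-life, the THAP12 ratio took rank 316. From the 10 listed genes, 6 were in the deposited table of 8996 genes: THAP3, THAP4, THAP5, THAP7, THAP11 and THAP12. THAP1, THAP2, THAP9 and THAP10 were absent, by symbol and by gene identifier, as were the family's other human genes THAP6 and THAP8. An absent gene has no value here, and absence does not say whether it was expressed.

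The cells were wild type by their label and received the solvent DMSO or STM2457, a small molecule that inhibits METTL3, for 3 h. They were then given 100 µM s4U, a uridine analog that marks new RNA, for 90 or 180 min, while control samples got none. There were 3 samples per combination, and so 6 groups and 18 samples, 9 for each treatment, and no dose of STM2457 is given in the labels. The labels do not say whether the 3 samples of a combination were separate cultures. The deposited table gives 1 fitted half-life and 1 fitted synthesis rate per gene for each treatment, with no value for a single sample and no read count. Neither depth nor error is known, there is no p-value, and a ratio below compares 2 fitted values. Of 6 markers of an epithelial or embryonic kidney line, KRT18, VIM and CDH2 were in the table. Of 7 markers of other cells, COL1A1 and CDX2 were. Presence in a half-life table was the whole of that check.

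METTL3 is the catalytic subunit of the complex that writes N6-methyladenosine (m6A) on mRNA, mostly within a short consensus called DRACH, and m6A is known to speed mRNA decay. THAP proteins read DNA through a zinc ion held by cysteines and a histidine, a fold shared with the transposase of the Drosophila P element. THAP9 keeps a full transposase-like body. Several THAP proteins recruit HCF-1, the product of HCFC1, a scaffold that brings chromatin-modifying enzymes to promoters. THAP11, also known as Ronin, works with HCF-1 and ZNF143 at the promoters of housekeeping genes. THAP7 is a histone-binding corepressor that recruits HDAC3 and NCOR1. THAP12 was first described as a regulator of DNAJC3, the inhibitor of the antiviral kinase PKR (EIF2AK2). THAP5 is a nuclear protein cleaved by the protease HTRA2, and THAP4 carries a haem-binding nitrobindin domain at its C terminus.

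The feature that unites the 6 measured mRNAs lies at the start of their coding sequences, where the first cysteines of the zinc site are encoded. The first 36 coding nucleotides of each, from GENCODE release 29 (GRCh38), are shown 5′ to 3′ on the coding strand, with in-frame cysteine codons in capitals.
THAP3 (chr1:6625219-6625254, plus strand): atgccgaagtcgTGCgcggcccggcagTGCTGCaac
THAP4 (chr2:241636982-241637017, minus strand): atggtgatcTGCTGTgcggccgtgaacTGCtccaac
THAP5 (chr7:108569534-108569569, minus strand): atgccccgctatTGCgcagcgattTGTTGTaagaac
THAP7 (chr22:21001876-21001911, minus strand): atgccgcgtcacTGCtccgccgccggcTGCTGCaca
THAP11 (chr16:67842555-67842590, plus strand): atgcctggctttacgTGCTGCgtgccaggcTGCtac
THAP12 (chr11:76380801-76380836, minus strand): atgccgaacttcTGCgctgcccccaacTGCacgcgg
THAP12 had 2 cysteine codons in this stretch, at codons 5 and 10, and each of the other 5 genes had 3. THAP3, THAP4, THAP5 and THAP7 had cysteine codons at those 2 positions too. THAP11 had its cysteine codons at 6, 7 and 11.

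In DMSO, 5 of the 6 THAP mRNAs were short-lived. THAP12 (ENSG00000137492.8) had the shortest half-life, 2.17 h, followed by THAP5 (ENSG00000177683.14) at 2.36 h and THAP3 (ENSG00000041988.15) at 2.37 h. THAP11 (ENSG00000168286.2) had 2.55 h and THAP7 (ENSG00000184436.11) 3.02 h. These 5 values lay between the 14.5th percentile of all genes (THAP12) and the 25.5th (THAP7). With no replicate values, the order of such close neighbours cannot be told from fitting error. THAP4 (ENSG00000176946.12) stood apart at 7.10 h, the 60.3rd percentile, above the median of all genes, 5.61 h. The table names no time unit. Hours are inferred from its highest half-life, 69.3, equal to a decay rate of 0.01 per unit of time.

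In STM2457 the family separated into 3 mRNAs with far longer half-lives and 3 whose half-lives differed by less than 1.5-fold. THAP12 had 23.0 h, against 2.17 h in DMSO, a 10.6-fold longer half-life (log2 ratio 3.40). THAP11 had 69.3 h, against 2.55 h, a 27.1-fold ratio (log2 4.76). THAP7 had 69.3 h, against 3.02 h, a 23.0-fold ratio (log2 4.52). The value of 69.3 h is the ceiling of the table, which 980 of all genes reached in STM2457 and 229 in DMSO. The sizes of the THAP11 and THAP7 ratios are therefore set by that ceiling, and these 2 genes cannot be ranked against each other or against THAP12.

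THAP5 had 3.38 h in STM2457, against 2.36 h in DMSO, a 1.43-fold ratio that stayed under the 1.5-fold size used to describe a gene as longer-lived or shorter-lived. THAP4 had 6.85 h and 7.10 h (log2 ratio -0.05), and THAP3 had 2.22 h and 2.37 h (log2 ratio -0.09). In all, 3 of 6 measured THAP genes were longer-lived, 0 were shorter-lived and 3 were within 1.5-fold. By the same rule the longer-lived share of the 8996 genes was 28.5% and the shorter-lived share 24.9%. The family was picked from these ratios, so nothing is read from its count.

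**Figure D1:**
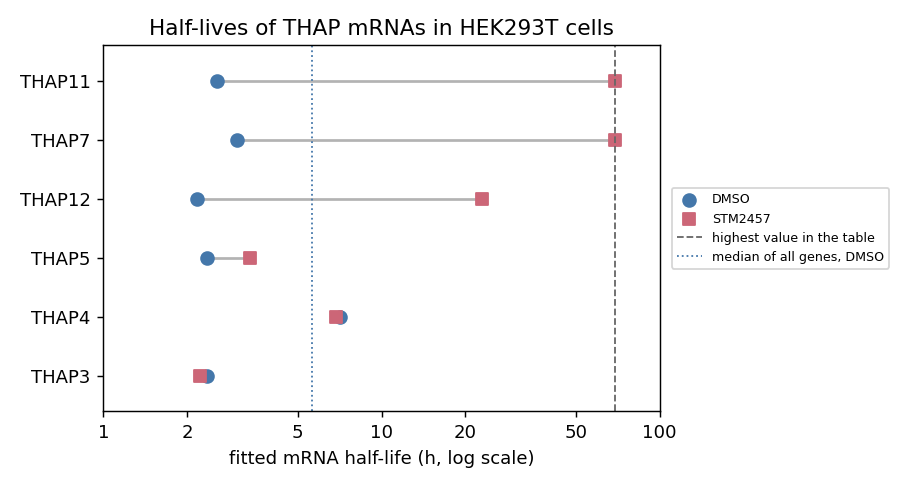
Fitted mRNA half-life in hours (log scale) of the 6 measured THAP genes, as circles for DMSO and squares for STM2457, with 1 value per gene and treatment. THAP7 and THAP11 sit at the table's ceiling of 69.3 h in STM2457, and THAP12 reaches 23.0 h. THAP3 and THAP4 stay near their DMSO values, and THAP5 reaches 3.38 h.

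The median log2 ratio of the 6 genes was 1.96, beside -0.01 for all genes. It rests on few values with a wide gap between 0.52 (THAP5) and 3.40 (THAP12), and was 0.52 without THAP12. Held to half-lives from 0.5 to 24 h, which drops THAP7 and THAP11 for their STM2457 values, it was 0.23 over 4 genes. THAP12 lay at rank 10 in that range. Just inside it was RTL6, a gene derived from a retrotransposon, at 10.7-fold, and just outside ADNP2 at 10.6-fold, so 3 neighbouring ranks spanned log2 ratios of 3.40 to 3.42. Of 2129 genes between 2 and 4 h in DMSO, 36.1% were longer-lived, 10.2% were shorter-lived and 7.00% were at the ceiling in STM2457, and 5 of the 6 THAP genes fell in that interval.

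The fits can be read as the share of existing RNA that would remain at the end of the labelling. For THAP12, the half-lives correspond to 38.3% of the mRNA left after 180 min in DMSO and 91.3% in STM2457. For THAP11 the shares were 44.3% and 97.0%, and for THAP7 50.2% and 97.0%. On this scale the step from the STM2457 half-life of THAP12 to the ceiling covers only the interval from 91.3% to 97.0%. After 90 min the shares in STM2457 were 95.6% for THAP12 and 98.5% for THAP7 and THAP11. THAP5 moved from 41.4% to 54.0% at 180 min, THAP3 had 41.5% and 39.2%, and THAP4 74.6% and 73.8%.

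**Figure D2:**
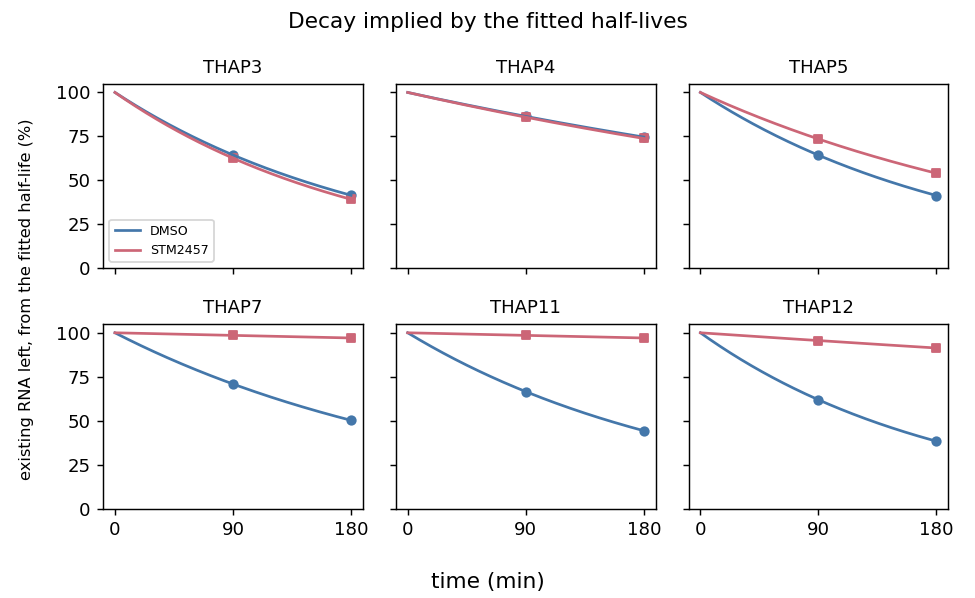
Percentage of existing RNA left over 180 min, computed from the fitted half-life in DMSO (circles) and STM2457 (squares), with markers at the 2 labelling times. The curves of THAP7, THAP11 and THAP12 stay above 90% in STM2457, while both curves nearly coincide for THAP3 and THAP4.

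Fitted synthesis rates were lower in STM2457 for the 3 longer-lived THAP genes. THAP12 had a synthesis rate of 55.4 in DMSO and 34.6 in STM2457, in the table's own units, which are not stated (log2 ratio -0.68). THAP11 went from 248 to 153 (log2 ratio -0.70) and THAP7 from 184 to 116 (log2 ratio -0.67). The log2 ratio was -0.29 for THAP4, -0.05 for THAP3 and -0.02 for THAP5. The 3 longer-lived THAP genes thus had lower fitted synthesis by nearly the same factor, 0.617 to 0.629. Over all longer-lived genes the median log2 synthesis ratio was -0.29, with quartiles of -0.61 and 0.07. Both quantities are outputs of 1 fit, and whether one trades against the other was not tested.

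**Figure D3:**
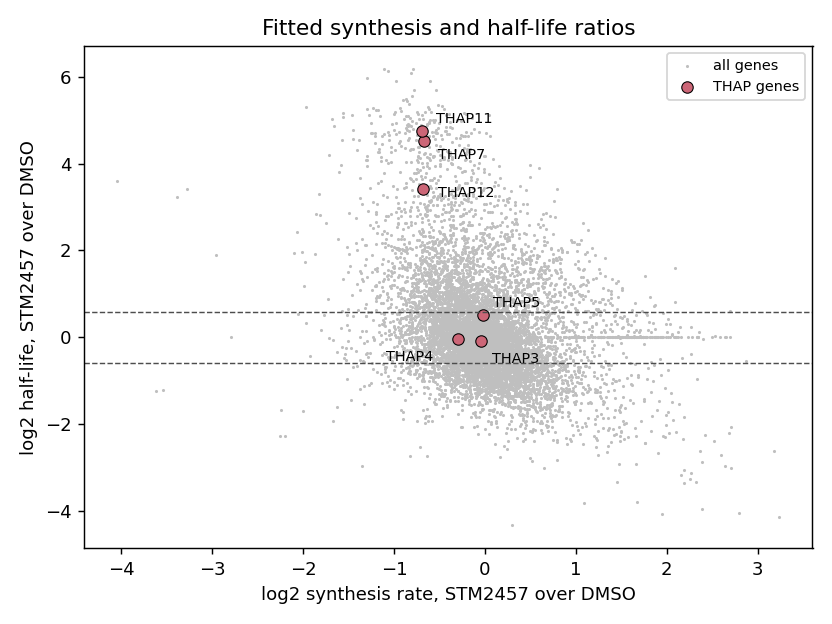
Log2 ratio of fitted synthesis rate (x axis) against log2 ratio of fitted half-life (y axis), STM2457 over DMSO, for all genes (grey) and the 6 THAP genes (red), with 1.5-fold marked by dashed lines. THAP7, THAP11 and THAP12 share a synthesis ratio near -0.7 and lie at half-life ratios of 3.40 to 4.76. THAP3 and THAP4 lie near 0 on the half-life axis, and THAP5 lies at 0.52, under the 1.5-fold line.

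Synthesis rate and half-life together imply a steady-state mRNA level, which was 6.62-fold the DMSO level for THAP12 in STM2457, 14.4-fold for THAP7 and 16.7-fold for THAP11. The cells had at most 6 h with the inhibitor. With the fitted STM2457 synthesis and no decay at all, 6 h would bring THAP12 to 2.20-fold, THAP7 to 1.87-fold and THAP11 to 2.00-fold, starting from the DMSO steady state. All 3 implied levels exceed what that time allows, as do those of 64.2% of the 2562 longer-lived genes and 23.4% of all 8996 genes. Among the 752 longer-lived genes at the ceiling in STM2457, which include THAP7 and THAP11, the share was 99.9%. What the exceeded limits mean for the sizes of the 3 ratios was not tested, and how the kinetics were fitted is not given. For THAP5 the implied level was 1.41-fold, under its limit of 2.74-fold. The levels for THAP3 and THAP4 were 0.910-fold and 0.787-fold. Nothing in the table gives the mRNA level of a sample, so the implied levels were not checked against one.

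The 6 genes differ in how their coding sequence is built, a property that took no part in their selection. DRACH stands for 5 letters: A, G or T, then A or G, then A and C, then A, C or T. Motifs were counted on the coding strand of the transcript with the longest coding sequence, and a motif was taken as far where its central A lay at least 100 nt from an exon junction. THAP12 (chr11:76349956-76380971, minus strand) had 70 motifs in 2283 coding nucleotides, of which 49 were far. The last of its 5 coding exons holds 84.5% of the coding sequence, and all far motifs lie between coding positions 466 and 2269. Only 3.34% of 8611 genes with a coding transcript had as many far motifs. THAP11 (chr16:67842082-67844195, plus strand) has its whole coding sequence of 942 nucleotides in 1 exon with 0 junctions, so all 8 of its motifs were far. THAP7 (chr22:20999104-21002196, minus strand) had 18 motifs in 927 nucleotides over 4 coding exons, with 8 far.

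Members with more far coding motifs did not always have the larger half-life ratio, and a link between the 2 was not tested. THAP5 (chr7:108554543-108569750, minus strand) had 29 far motifs of 42, more than THAP7 and THAP11 together, with a half-life ratio under 1.5-fold. THAP4 (chr2:241584405-241637449, minus strand) had 14 far motifs of 26 with a log2 ratio of -0.05. THAP3 (chr1:6624866-6635586, plus strand) had 4 far motifs of 15. Per kilobase of coding sequence, far motifs numbered 24.5 in THAP5, 21.5 in THAP12, 8.63 in THAP7, 8.49 in THAP11, 8.09 in THAP4 and 5.58 in THAP3. The median over all genes was 2.15, below each of the 6. Of the 6 genes, 3 had 10 or more far motifs (THAP4, THAP5 and THAP12), against 25.3% of all genes. Genes of that class had a median log2 half-life ratio of 0.48, and 45.7% were longer-lived. THAP7 and THAP11, with 8 far motifs each, fall in the class with 4 to 9. That class had a median of -0.03 and 26.1% longer-lived, beside 28.4% of all genes with a coding transcript. Among 348 genes whose coding sequence lies in a single exon, as in THAP11, 52.9% were longer-lived and the median was 0.67. Motifs are letters in a sequence and not a measurement of m6A.

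**Figure D4:**
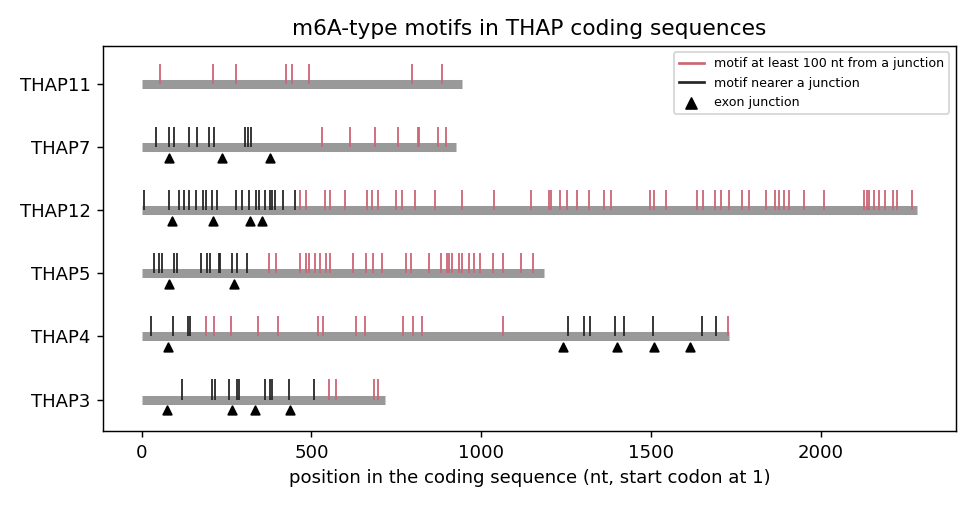
Coding sequences of the 6 THAP genes drawn to scale by position in nucleotides, with DRACH motifs at least 100 nt from an exon junction in red, nearer ones in black, and junctions as triangles. THAP12 carries 49 far motifs in its long last coding exon, THAP11 has no junction, and THAP5 carries 29 far motifs with a half-life ratio under 1.5-fold.

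The far motifs that begin with GGAC, the form known to be methylated most often, show how the sequences of members past and within 1.5-fold compare. A far GGAC motif was present in 51.8% of all genes with a coding transcript, with a median of 1. Each is shown 5′ to 3′ on the coding strand with 10 nt to either side of the A and the motif in capitals. All are shown for THAP5, THAP7, THAP11 and THAP12, and those ending in T for THAP3 and THAP4.
THAP12 (chr11:76352585-76352605): ctctggatGGACAtgaggctg
THAP12 (chr11:76352334-76352354): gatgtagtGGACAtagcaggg
THAP12 (chr11:76351858-76351878): ttctcagtGGACAggcaggca
THAP12 (chr11:76351301-76351321): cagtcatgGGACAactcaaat
THAP12 (chr11:76350927-76350947): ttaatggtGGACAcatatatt
THAP11 (chr16:67842597-67842617): tcgcaccgGGACAaggcgctg
THAP11 (chr16:67843341-67843361): gagcagcgGGACAtcctggct
THAP7 (chr22:20999904-20999924): catgtgcaGGACTttgccatg
THAP5 (chr7:108564426-108564446): agactatgGGACAgaagtttt
THAP4 (chr2:241633627-241633647): tctggaacGGACTccaggaga
THAP4 (chr2:241633613-241633633): caggagatGGACTggccacca
THAP3 (chr1:6632898-6632918): gcccttttGGACTtagattcc
THAP3 (chr1:6633031-6633051): ggcaccagGGACTccaggcca
THAP12 had 5 such motifs among its 49 far ones, and THAP4, with a half-life ratio within 1.5-fold, also had 5. THAP11 and THAP3 had 2 each, and THAP5 and THAP7 had 1 each. All 5 motifs of THAP12 and both of THAP11 read GGACA, as did the motif of THAP5 and 1 of the 5 in THAP4. The motif of THAP7, both of THAP3 and 2 in THAP4 read GGACT, and the other 2 in THAP4 read GGACC. At least 1 far GGAC motif was thus found in each of the 6 genes, in the transcript with the longest coding sequence. The longest transcript of THAP3 had 0 far motifs of any form.

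Outside the coding sequence, the same transcripts held 39 motifs in the 3′ UTR of THAP5, 24 in THAP11, 19 in THAP12, 7 in THAP3, 4 in THAP7 and 2 in THAP4. All of these motifs were at least 100 nt from a junction. The libraries read mRNA 3′ ends, and the 3′ ends used in these cells were not determined here.

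Several of these genes overlap other annotated genes. Overlap lengths here count whole gene spans, introns included. For genes on opposite strands, the sources used here do not say whether reads were counted by strand. THAP12 overlaps no other annotated gene. THAP11 lies wholly within CENPT, a centromere gene on the opposite strand, whose half-life went from 30.4 h to 8.30 h, a shift the other way. THAP5 shares 15124 nt, nearly its whole annotated span, with PNPLA8, a phospholipase gene on the same strand. Counting by strand alone would not separate reads from the shared stretch, and whether these 2 genes share a 3′ end was not checked. PNPLA8 had 4.36 h and 6.74 h, a 1.54-fold ratio beside the 1.43-fold of THAP5. THAP3 overlaps the 3′ end of DNAJC11 by 1419 nt on the opposite strand, and DNAJC11 had 6.62 h and 6.99 h. THAP4 and ATG4B overlap by 237 nt at their starts, and ATG4B was shorter-lived, from 13.3 h to 4.19 h. THAP7 overlaps the antisense gene THAP7-AS1 by 311 nt, THAP5 overlaps DNAJB9 by 183 nt and THAP4 the pseudogene RNA5SP122 by 108 nt, each on the opposite strand, and these 3 genes have no row in the table. The part of these overlaps in the THAP values was not tested.

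Genes of the THAP pathway lay on both sides of the all-gene median. Of 21 partner and target genes listed, 20 were in the table: 4 passed 1.5-fold upward, 5 passed it downward and 11 did neither, beside 28.5% and 24.9% of all genes past that size. Their median log2 half-life ratio was -0.08, beside -0.01 for all genes, and 0 of the 20 were at the ceiling. Among the cofactors, HCFC1 was 5.27-fold shorter-lived, from 17.2 h to 3.26 h. OGT, the glycosyltransferase that modifies and cleaves HCF-1, was 2.36-fold shorter-lived, from 7.35 h to 3.11 h. ZNF143, the zinc-finger factor that shares promoters with THAP11, had 1.95 h and 1.55 h (log2 ratio -0.33), within 1.5-fold. HCFC2 was the listed gene not in the table.

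The histone deacetylase HDAC3 was 1.85-fold shorter-lived, from 20.9 h to 11.3 h. These half-lives correspond to 90.5% and 83.2% of its mRNA left after 180 min. The corepressor NCOR1 was 1.56-fold shorter-lived and WDR5, a subunit of histone methyltransferase complexes, 1.72-fold. SIN3A, a corepressor scaffold bound by HCF-1, was 1.56-fold longer-lived. HTRA2, the protease that cleaves THAP5, was 1.88-fold longer-lived. Among target genes, MMACHC, a cobalamin-processing enzyme regulated through THAP11 and HCF-1, was 2.03-fold longer-lived, from 3.92 h to 7.95 h. YY1, a transcription factor and reported THAP1 target, was 2.58-fold longer-lived, from 3.20 h to 8.24 h. The PKR pathway genes tied to THAP12 stayed within 1.5-fold, with DNAJC3 at a log2 ratio of -0.20 and EIF2AK2 at 7.70 h and 10.4 h.

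Other genes derived from DNA transposons were set beside the family because of the transposase origin of the THAP domain. Of 34 listed, 12 were in the table. By the 1.5-fold rule 3 were longer-lived, a share near the 28.5% of all genes, and 0 were shorter-lived, beside 24.9%. The list had a median log2 ratio of 0.08 and a median half-life in DMSO of 2.32 h. Of all genes between 2 and 4 h in DMSO, 36.1% were longer-lived and 10.2% were shorter-lived. Not all of the 12 genes lay in that interval, with JRK at 1.16 h and FAM200B at 4.45 h in DMSO. ZBED4, from the hAT family of transposons, was 7.39-fold longer-lived, from 2.47 h to 18.3 h. POGK, a pogo-like gene, went from 1.64 h to 6.74 h and PGBD5, from the piggyBac family, from 3.15 h to 6.91 h. The lowest ratios were in ZBED3 (3.49 h and 2.34 h, log2 ratio -0.58), the centromere protein gene CENPB (3.61 h and 2.48 h, log2 ratio -0.54) and FAM200B (log2 ratio -0.27). Each was within 1.5-fold, with ZBED3 just under that size at 1.496-fold shorter. The median number of far coding motifs in this list was 30.5, and ZBED4 had 64. FAM200B had 42 with a log2 ratio below 0. The lists were compared by counts and medians alone, and the difference between them was not tested.

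**Figure D5:**
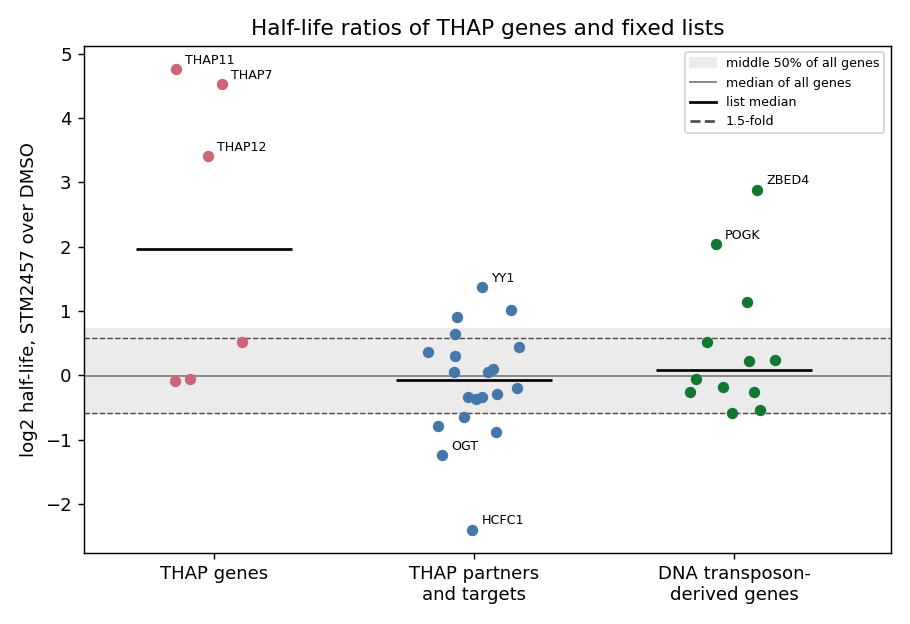
Log2 half-life ratio, STM2457 over DMSO, of each gene in the THAP family (6), the partner and target list (20) and the DNA transposon-derived list (12), with the list medians as bars and the middle 50% of all genes shaded. The THAP genes fall into a pair of clusters around the bar at 1.96, while the medians of the other lists lie at -0.08 and 0.08.

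The profile most like that of THAP12 was sought among 8992 other genes with all 4 fitted values above 0, by Euclidean distance over the log2 half-lives and log2 synthesis rates in both treatments. The nearest was NCK1, an adaptor of receptor signalling, at a distance of 0.24, with half-lives of 2.00 h and 20.5 h and a log2 synthesis ratio of -0.73. CCDC82 followed at 0.37 with 2.17 h and 19.4 h, and MIOS, of the GATOR2 complex, at 0.45 with 2.62 h and 19.9 h. PITPNA-AS1, a non-coding RNA, lay at 0.61 and STK17A, a kinase, at 0.65. No other THAP gene was among these 5. NCK1, CCDC82, MIOS and STK17A had 17, 24, 32 and 5 far coding motifs, against 49 in THAP12.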

How the data were processed

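SLAM-seq libraries of mRNA 3′ ends were made from total RNA of 18 HEK293T samples. GRCh38.p12, STAR 2.7.8a and FastQC 0.11.9 are named in the submitters' processing notes. The sources used here do not give how the kinetics were fitted, on which annotation or with which gene filter. The authors fitted a half-life and a synthesis rate for each gene in each treatment and deposited the synthesis rate as a score with no stated unit, per the file headers. The authors deposited log2 ratios too, which were checked against the recomputed ratios used here. A gene was longer-lived or shorter-lived past 1.5-fold, with no test, and at the ceiling within 1e-06 of the highest value.

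Gene models and sequences came from GENCODE release 29 (GRCh38), matched by gene identifier without its version, for 6 of 6 THAP genes; for 8611 genes a coding transcript was used. Protein sequences were not used here. Named were all THAP genes; HCFC1, HCFC2, OGT, ZNF143 and partner genes past 1.5-fold; the 3 highest and 3 lowest transposon-derived genes; and the 5 genes nearest THAP12. DNAJC3 and EIF2AK2 were named after their values were seen, as were the genes overlapping members. The members and lists were chosen with earlier results of these data known. Counting and motif scripts were tested on simulated data. The software was Python 3.11.15 with NumPy 2.4.6, pandas 2.3.3 and Matplotlib 3.10.9. Alternatives altered the fold, the range of half-lives, the members, the scaling, the distance to a junction, the transcript and the motif.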

Additional observations from a re-analysis of the deposited data

How the results depend on the processing

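Of 15 alternatives run, 6 left the count or median at its value and 9 changed it. The median of the THAP genes stayed above 0 under the 3 alternatives run for it. With both half-lives between 0.5 and 24 h, 1 THAP gene (THAP12) was longer-lived rather than 3, and the median log2 ratio was 0.23; this range drops THAP7 and THAP11, which sit at the ceiling. The median was 0.52 without THAP12 and 1.62 with the STM2457 half-lives matched to the DMSO quantiles, against 1.96. That matching moved the median of all genes from -0.01 to -0.18. At 2-fold, 2 partner and target genes were longer-lived rather than 4, and 2 shorter-lived rather than 5, beside longer-lived and shorter-lived shares of 19.7% and 11.3% over all genes at that size. Counting GGAC motifs alone, an alternative chosen after seeing the data, left 0 THAP genes with 10 or more, against 3. At junction distances of 50 and 200 nt that count was 4 and 2. In the longest transcript of THAP3, 0 far motifs remained, against 4. No paired analysis was possible because the table has no column for a single sample; for the same reason no replicate could be left out. Read depth is unknown.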

Other observations

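THAP9-AS1, a non-coding RNA named for its position opposite THAP9, was in the table although THAP9 was not. It was shorter-lived in DMSO than each of the 6 THAP mRNAs, at 0.707 h, and had 0.553 h in STM2457, a log2 ratio of -0.35 within 1.5-fold. Its log2 synthesis ratio was -0.06.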
